A study of Mus musculus with 3 samples.

Results

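The lysosomal proteases, hydrolases and proton pump were described as a set of 54 genes, out of 55536 annotated genes of which 22028 are protein-coding. The set holds 31 genes listed by symbol (cathepsins and other proteases, their inhibitors, glycan and lipid hydrolases, lysozymes, membrane proteins and the MiT/TFE transcription factors) and the 23 protein-coding genes whose symbol begins with Atp6v. The rule reads gene symbols and gene type and uses no measured value. The members were, however, chosen with earlier results of these data known. The genes were measured by total RNA-seq, after ribosomal RNA depletion, in the cytosolic fraction of macrophages grown from bone marrow of C57BL/6J mice. The 3 libraries form 1 group of 3 replicates: cells that met 100 ng/ml Lipid A (the lipopolysaccharide component recognised by the receptor TLR4) during 12 h, had it washed out over 12 h and met the same dose, 100 ng/ml, during a final 90 min. The starting RNA was 1 µg per library and insert sizes were 250 to 400 nt. The replicates are separate biosamples that carry the same donor record, so the SDs given here measure the spread between these samples, which may be partly technical. The labels give no age or sex. Cells without Lipid A or with 1 exposure were not analysed here, so every value is a level in twice-exposed cells and not a response.

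The lysosome is the acidic compartment in which macrophages break down what they engulf. Its lumen is acidified by the vacuolar ATPase, a rotary pump in which a cytosolic V1 sector splits ATP and a membrane V0 sector carries protons. Cathepsins are made as inactive precursors that mature at low pH, and cystatins and stefins inhibit the cysteine type. TFEB, TFE3 and MITF are related transcription factors that bind E-box sequences in promoters of many lysosomal genes, and the nutrient-sensing kinase complex mTORC1 holds TFEB in the cytosol.

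Library totals ran from 40730514 to 70484996 expected counts, of which 0.0959 to 0.227% fell on the phiX control. All levels are TPM, the length-corrected measure of transcript abundance, and genes that reached 1 TPM in every library are called detected. Nuclear protein-coding genes took only 28.0 to 33.2% of TPM and other RNAs the rest, so absolute TPM depend on that share. All 10 macrophage markers examined, among them Adgre1 and Csf1r, were detected, with a summed level of 2948 to 3044 TPM per library. T, B and NK cell markers (0 of 8 detected, summed level 0.01 to 0.17 TPM, Cd3g at 0 counts) and fibroblast and endothelial markers (0 of 8, 0.9 to 1.18 TPM, none at 0 counts) lay under the threshold. Among dendritic cell markers 1 of 8 was detected (Ccr7, summed level 1.78 to 2.23 TPM, Cd209a at 0 counts), and among neutrophil markers 2 of 9 (S100a8 and S100a9, summed level 7.96 to 13.0 TPM, Ly6g and Retnlg at 0 counts).

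The lysosomal set was abundant. Its members took 6.98, 7.55 and 7.09% of the nuclear protein-coding TPM in replicates 1, 2 and 3 (7.21 ± 0.303%, SD, n = 3). Of the 54 members 44 were detected, 81.5% against 40.1% of all nuclear protein-coding genes. The median member stood at 89.4 TPM (119 over the 44 detected), against 8.48 TPM for all detected protein-coding genes. Members at 100 TPM or more numbered 22 (40.7% of 54, against 4.66% of the 8826 detected protein-coding genes), and 6 passed 1000 TPM, where 17 protein-coding genes stood in all. Those 6 were Psap, Lyz2, Ctsd, Ctsb, Gpnmb and Ctss. The 10 members that were not detected were Ctsk, Lyz1 and 8 genes of the Atp6v group. These shares describe the set and were not tested.

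**Figure D1:**
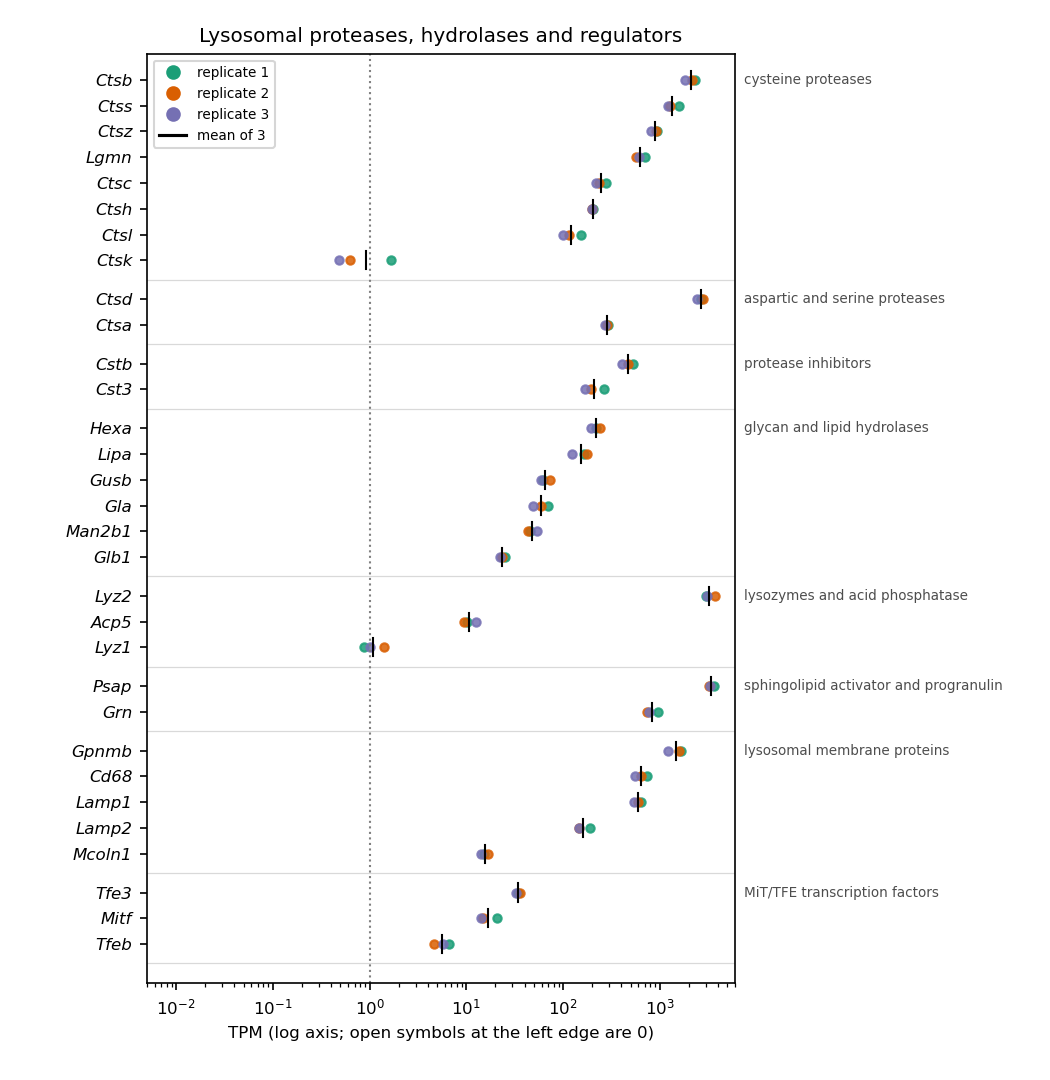
TPM (log axis) of the 31 listed members in each of the 3 libraries (coloured points) with their mean (black bar), by role; the dotted line marks 1 TPM. Psap, Lyz2, Ctsd, Ctsb, Gpnmb and Ctss lie above 1000 TPM in each library, and Ctsk and Lyz1 lie near 1 TPM.

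The cysteine proteases were led by cathepsin B and cathepsin S. Ctsb (ENSMUSG00000021939.8, mm10 chr14:63122462-63145923), a broad-range cysteine protease that also trims peptides from the C-terminal end, stood at 2322, 2173 and 1834 TPM in replicates 1, 2 and 3 (2109 ± 250.1). Ctss (ENSMUSG00000038642.10, chr3:95526786-95556403), which removes the invariant chain from class II MHC molecules in antigen-presenting cells, stood at 1569, 1278 and 1206 TPM (1351 ± 193). Every library held more Ctsb than Ctss, and replicate 1 was the highest of the 3 for both genes. In TPM 45.9% of the 12256 genes tested were highest in replicate 1 and 50.1% lowest in replicate 3. Orders of the libraries in TPM, here and below, are to be read against these shares. Ctsz, a carboxypeptidase, followed at 887 ± 74.1 TPM, and Lgmn, the asparagine-specific protease that processes cathepsin precursors, at 630.1 ± 74.6. Ctsc, which activates the serine proteases of granulocytes, stood at 245 ± 29.8 TPM and the aminopeptidase Ctsh at 202 ± 2.62. Ctsl, the close relative that can also process the invariant chain, stood at 152, 114 and 99.4 TPM, so that Ctsb was 17.5-fold higher on the geometric mean (log2 ratio 4.13 ± 0.17, n = 3). The group as a whole took 1.83 ± 0.0446% of nuclear protein-coding TPM, with 7 of 8 members detected.

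Ctsk, the collagen-degrading cathepsin of osteoclasts, was the exception in this family. It stood at 1.66, 0.63 and 0.48 TPM (ENSMUSG00000028111.4, chr3:95499256-95509362, 132, 97 and 54 counts). Only replicate 1 passed 1 TPM, and it did not overlap the others. Its neighbour on chromosome 3, Ctss, was higher by a log2 ratio of 10.72 ± 0.74, a geometric mean of 1689-fold, and by 9.88 in replicate 1, where the gap was smallest.

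Among the other proteases, Ctsd (ENSMUSG00000007891.16, chr7:142375911-142388038), the main aspartic protease of lysosomes, stood at 2698, 2832 and 2421 TPM. Ctsa (chr2:164832873-164841032), a serine carboxypeptidase that also stabilises beta-galactosidase and neuraminidase, stood at 295, 288 and 271 TPM. It overlaps Pltp (145, 93.2 and 142 TPM) on the other strand. The sources do not state if counting used strand, so reads in the shared part cannot be assigned with certainty. For both genes replicate 3 was the lowest library. In TPM of the gene table Ctsd exceeded Ctsb in each library (log2 ratio 0.22, 0.38 and 0.40), but the order turned in TPM of the second transcript table (-0.06) and in counts not corrected for length (-0.75). The Ctsd gene also overlaps the protein-coding gene model Gm49369 on the same strand, which stood at 20.9, 390.3 and 498 TPM. Its level in replicate 1 was far below that in the other libraries, and the split of reads between these gene models is uncertain. On the side of Ctsb, retained-intron transcripts took 15.9% of its TPM, and 38.6% in the second transcript table. The part of either in the turned order was not tested. Which of the 2 proteases was more abundant was therefore not settled by these files.

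The protease inhibitors were abundant as well. Cstb, the cytosolic stefin B that inhibits cathepsins outside the lysosome, stood at 525, 468 and 405 TPM. Cst3, the secreted cystatin C, stood at 267, 195 and 169 TPM. Both genes were highest in replicate 1 and lowest in replicate 3. Ctsb exceeded Cstb by a log2 ratio of 2.18 ± 0.04, the smallest SD of the 13 pairs examined. That ratio was 2.53 in the second transcript table. Ctss exceeded Cst3 by 2.70 ± 0.14.

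The 6 glycan and lipid hydrolases were all detected and lay well below the leading proteases, with a median of 62.0 TPM. Hexa, the alpha subunit of beta-hexosaminidase, which removes the terminal sugar of GM2 ganglioside, stood at 217, 239 and 197 TPM. Lipa, the acid lipase that frees cholesterol from its esters, stood at 163, 178 and 122 TPM. Glb1, the acid beta-galactosidase, was lowest at 25.2, 23.3 and 22.3 TPM. The groups of values of these 3 genes did not overlap each other: the lowest Hexa value lay above the highest Lipa value, and both above Glb1. Between them lay the beta-glucuronidase Gusb (64.8 ± 7.29), the alpha-galactosidase Gla (59.2 ± 10.9) and the alpha-mannosidase Man2b1 (47.8 ± 5.32); the difference between Gusb and Gla was smaller than the SD of either.

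Lysozyme RNA came almost wholly from Lyz2, the lysozyme gene of mouse macrophages, whose neighbour Lyz1 is best known from Paneth cells of the gut. Lyz2 (ENSMUSG00000069516.8, chr10:117277331-117282321) stood at 2982, 3752 and 3052 TPM. Lyz1 (ENSMUSG00000069515.6, chr10:117287797-117292868) stood at 0.88, 1.4 and 1 TPM. Replicate 2 was the highest for both genes, and the log2 ratio was 11.56 ± 0.17, a geometric mean of 3027-fold. Their coding sequences, of 447 bases each, are 95.1% identical and differ at 22 bases, and the longest identical run is 118 bases. Lyz1 counts (56.0 to 173.1 per library) were a very small part of Lyz2 counts (200258 to 486068), and since near-identical copies can share reads, the level of Lyz1 is uncertain. The stretch with most differences, coding bases 61 to 120 of the GENCODE M21 transcripts, is shown to let the copies be compared, with the bases that differ in capitals.
Lyz1: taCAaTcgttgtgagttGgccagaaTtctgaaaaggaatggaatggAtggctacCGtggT
Lyz2: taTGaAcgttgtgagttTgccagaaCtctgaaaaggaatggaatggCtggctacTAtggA

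Acp5, the tartrate-resistant acid phosphatase of osteoclasts and some macrophages, was detected at a low level of 10.2, 9.44 and 12.5 TPM. Psap and Grn encode precursors that are cut into small active proteins in the lysosome. Psap (ENSMUSG00000004207.14, chr10:60277627-60302597), the precursor of the saposins that help sphingolipid hydrolases reach their lipids, was the most abundant member at 3662, 3269.7 and 3336 TPM (3422 ± 209.8). It exceeded Lyz2 in replicates 1 and 3 but not in replicate 2, so the order of these genes was not fixed. Grn, the precursor of the granulins, stood at 949, 742 and 779.5 TPM. Its highest library was again replicate 1.

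Of the 5 membrane proteins Gpnmb was highest. Gpnmb (ENSMUSG00000029816.10, chr6:49036546-49070929), a glycoprotein known as a target of MITF and as a marker of lysosomal stress in macrophages, stood at 1641, 1573 and 1223 TPM. Cd68 (chr11:69664213-69666153), the macrosialin used as a macrophage marker, stood at 735, 641 and 549 TPM. For both genes replicate 1 was the highest library and replicate 3 the lowest. Mcoln1, the calcium channel TRPML1, was the lowest at 15.4, 16.9 and 14.1 TPM.

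The main structural proteins of the lysosomal membrane differed in level. Lamp1 stood at 639, 600.4 and 539.6 TPM and Lamp2 at 188, 145 and 147 TPM, a log2 ratio of 1.90 ± 0.15. Lamp2 RNA was shared almost evenly between transcripts with different ends: Lamp2-201 took 52.7, 53.1 and 47.0% of the gene's TPM and Lamp2-202 took 46.9, 46.4 and 52.4%. Which of them was higher differed between libraries, and in the second transcript table the shares were 55.1 ± 2.94 and 44.4 ± 2.87%. Both have a coding length of 1248 bases and share the first 1109. The remainder codes for the end of the luminal part, the membrane span and the short cytosolic tail, and the transcripts correspond to the forms known as LAMP2A, the receptor of chaperone-mediated autophagy, and LAMP2B. The coding ends, bases 1108 to 1248 of the GENCODE M21 transcripts (mm10, minus strand of chromosome X), are shown since they are all that tells the forms apart in the protein, with the stop codon in capitals.
Lamp2-201: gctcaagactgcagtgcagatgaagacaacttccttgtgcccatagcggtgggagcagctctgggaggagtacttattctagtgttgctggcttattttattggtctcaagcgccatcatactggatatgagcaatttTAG
Lamp2-202: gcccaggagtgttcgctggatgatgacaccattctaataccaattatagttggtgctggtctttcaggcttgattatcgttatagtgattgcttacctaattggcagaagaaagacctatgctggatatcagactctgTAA

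The 3 MiT/TFE factors of the set were expressed at modest levels in a fixed order. Tfe3 (ENSMUSG00000000134.17, chrX:7762560-7775202) stood at 34.4, 35.8 and 32.55 TPM. Mitf (chr6:97807052-98021349), the family member named after its role in pigment cells, stood at 21.02, 14.8 and 14.3 TPM. Tfeb (chr17:47737030-47792419), the best studied regulator of lysosome formation, stood at 6.64, 4.62 and 5.69 TPM. The values of the 3 genes did not overlap, and Tfe3 exceeded Tfeb by a log2 ratio of 2.61 ± 0.30 and Mitf exceeded it by 1.56 ± 0.20. Tfec, the fourth member of the family and largely restricted to macrophages, is not in the set and stood at 25.2, 28.7 and 13.3 TPM (22.4 ± 8.11), with replicate 3 apart from the others. Tfec lay below Mitf in replicate 3 and above it in the other libraries.

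The promoters of the members were searched for the letters that these factors are known to bind. RefSeq start sites with their sequence from 250 bases before to 50 after the start (GRCm38.p6, the mm10 build) were found for 45 of the 54 members. The entries for Atp6v0a2, Atp6v0d2, Atp6v1b2, Atp6v1c1, Atp6v1g1, Atp6v1h, Cstb, Ctsb and Ctsh were not among them. The E-box CACGTG, which reads the same on both strands, occurred in 12 of 45 members (26.7%), against 8.09% of 27025 genes with an entry and 12.8% of 7084 detected protein-coding genes. The extended form TCACGTGA, which contains the E-box and is also its own reverse complement, occurred in 7 members (15.6%), against 1.13% of all and 2.63% of detected protein-coding genes. The M-box TCATGTGA, searched with its reverse complement TCACATGA, occurred in Acp5, Atp6v0c, Ctss, Gla and Grn (11.1%, against 1.15 and 1.07%). These shares are descriptions of letters in a window and not sites of binding, and no difference was tested. Lamp1 held 4 copies of the E-box between positions -58 and -12 from its start.

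The 9 matches of TCACGTGA lay in promoters of genes of different roles, and each is shown in its 30-base surroundings, 5′ to 3′ on the gene's strand, with the match in capitals. Ctsa and Gla hold 2 matches each, and those of Ctsa and of Mcoln1, Atp6v0d1 and Atp6v0e lie within 50 bases of the start site.
Atp6v0d1, chr8:105566050-105566079, position 0: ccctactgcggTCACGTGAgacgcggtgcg
Atp6v0e, chr17:26676387-26676416, position 6: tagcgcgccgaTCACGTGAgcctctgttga
Atp6v1a, chr16:44139373-44139402, position -128: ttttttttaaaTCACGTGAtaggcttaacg
Ctsa, chr2:164833749-164833778, position -9: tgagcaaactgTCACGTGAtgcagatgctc
Ctsa, chr2:164833766-164833795, position 8: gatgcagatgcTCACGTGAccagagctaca
Ctsd, chr7:142387908-142387937, position -95: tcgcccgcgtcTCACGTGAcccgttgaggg
Gla, chrX:134601215-134601244, position -224: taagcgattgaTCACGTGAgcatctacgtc
Gla, chrX:134601182-134601211, position -191: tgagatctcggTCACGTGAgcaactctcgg
Mcoln1, chr8:3500462-3500491, position -42: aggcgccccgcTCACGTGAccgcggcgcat

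The 7 genes with these letters had levels from 15.5 TPM (Mcoln1) to 2650.3 TPM (Ctsd), with a median of 94.2. The 38 members with an entry but without the match had a median of 74.7 TPM, and 28 of them were detected. The levels with and without the letters overlapped over most of their range.

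**Figure D2:**
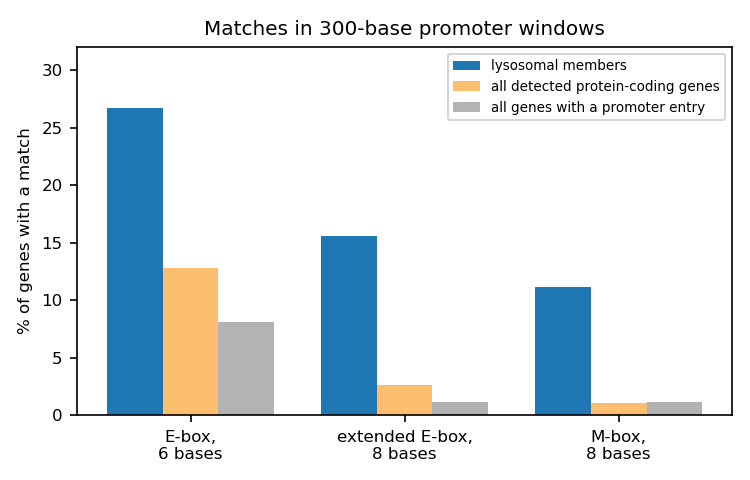
Share of genes (%, bars) with a match in the 300-base promoter window for 3 motifs, among the 45 lysosomal members with an entry (blue), all detected protein-coding genes (orange) and all genes with an entry (grey). The members' bars stand at 26.7, 15.6 and 11.1%, above the other bars for each motif; no test was made.

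The proton pump was represented by 15 detected genes of the 23 whose symbol begins with Atp6v. Where a V1 subunit has paralogs, 1 gene carried nearly all of the RNA. The V1 sector, which splits ATP, had 8 detected genes between 34.96 and 117 TPM. Atp6v1b2 (ENSMUSG00000006273.14, chr8:69088646-69113711), the widely expressed form of the nucleotide-binding B subunit, was highest at 130.1, 118 and 103 TPM. Atp6v1g1, a subunit of the peripheral stalk, stood at 114, 114 and 88.8 TPM, and the regulatory subunit Atp6v1h was lowest of the detected ones at 40.0, 34.2 and 30.6. The catalytic subunit Atp6v1a stood at 108, 97.6 and 76.7 TPM, a log2 ratio to Atp6v1b2 of -0.32 ± 0.09. A and B subunits occur in equal numbers in the pump, which RNA levels do not measure. The RNA ratio was -0.05 in the second transcript table and reversed to 0.26 in counts not corrected for length. Atp6v1f (100.0 ± 9.69 TPM), Atp6v1e1 (84.6 ± 9.87), Atp6v1c1 (60.5 ± 5.89) and Atp6v1d (41.6 ± 7.84), which form the central and peripheral stalks, lay within the same range. Of the Atp6v1d level, 45.1% fell on a retained-intron transcript (58.1% in the second transcript table). The order of the V1 genes is therefore that of gene totals and not of coding RNA. All 8 were lowest in replicate 3 in TPM, as were 50.1% of all genes tested.

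The alternative V1 paralogs were near or at 0. Atp6v1b1, the B subunit of kidney and inner ear, Atp6v1c2, Atp6v1e2 and Atp6v1g3 had 0 counts in all 3 libraries of the gene table. So did Atp6v1fnb, a gene named for its place beside Atp6v1f that is not a subunit. The second transcript table gave Atp6v1c2 0.0075, 0.0133 and 0.00535 TPM and Atp6v1fnb 0, 0 and 0.0124 TPM. A count of 0 allows up to 3 counts, which corresponds to at most 0.0574 TPM for Atp6v1b1, 0.0593 for Atp6v1c2, 0.0520 for Atp6v1e2, 0.0292 for Atp6v1g3 and 0.109 for Atp6v1fnb in the library with the highest limit. With that floor per library, Atp6v1b2 was at least 2851-fold higher than Atp6v1b1 on the geometric mean. Atp6v1g2, known as a neuronal form, stood at 0.7, 1.11 and 0.84 TPM (46.0 to 127 counts), and it overlaps Nfkbil1 (4.91 TPM) on the other strand. The sources do not state if counting used strand, so reads of that pair cannot be told apart.

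In the V0 sector, which carries the protons, the proteolipids of the rotating ring were the most abundant of the genes with an Atp6v symbol. Atp6v0c (ENSMUSG00000024121.13, chr17:24163866-24169702), the main ring proteolipid, stood at 622, 595 and 486 TPM. Atp6v0b, a related ring subunit, stood at 150.3, 138 and 116 TPM. Atp6v0c lay above every other pump gene by more than the range of its own values, as the plot of pump genes by library shows. A processed copy of it, Atp6v0c-ps2, was left out as a pseudogene. This copy stood at 3.32 to 5.37 TPM, and at 0.0588 to 0.155 TPM in the second transcript table. The split of shared reads between Atp6v0c and the copy is uncertain. The small subunit Atp6v0e stood at 98.6 ± 10.2 TPM, whereas its paralog Atp6v0e2 had 3, 2 and 0 counts (0.04, 0.01 and 0 TPM).

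The membrane-spanning a subunit, which directs the pump to particular membranes, has 4 genes. In these libraries Tcirg1, the a3 gene of lysosomes and osteoclasts, which carries no Atp6v symbol and so lies outside the set, was highest at 170.1, 159 and 121 TPM. Atp6v0a1 followed at 43.4, 61.3 and 43.5 TPM, a log2 ratio of 1.61 ± 0.32 in favour of Tcirg1, and Atp6v0a2, the form of the Golgi and endosomes, at 8.51, 7.9 and 7.55. Atp6v0a4, the kidney form, had 0 counts, which allows at most 0.0409 TPM. The values of the 3 detected genes did not overlap. Of the d subunits that join both sectors, Atp6v0d1 stood at 74.2, 70.7 and 60.4 TPM. Its paralog Atp6v0d2 (ENSMUSG00000028238.6, chr4:19876841-19922605), required for osteoclast fusion, stood at 5.77, 5.14 and 3.17 TPM, with replicate 3 lowest, and the log2 ratio was 3.91 ± 0.30.

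**Figure D3:**
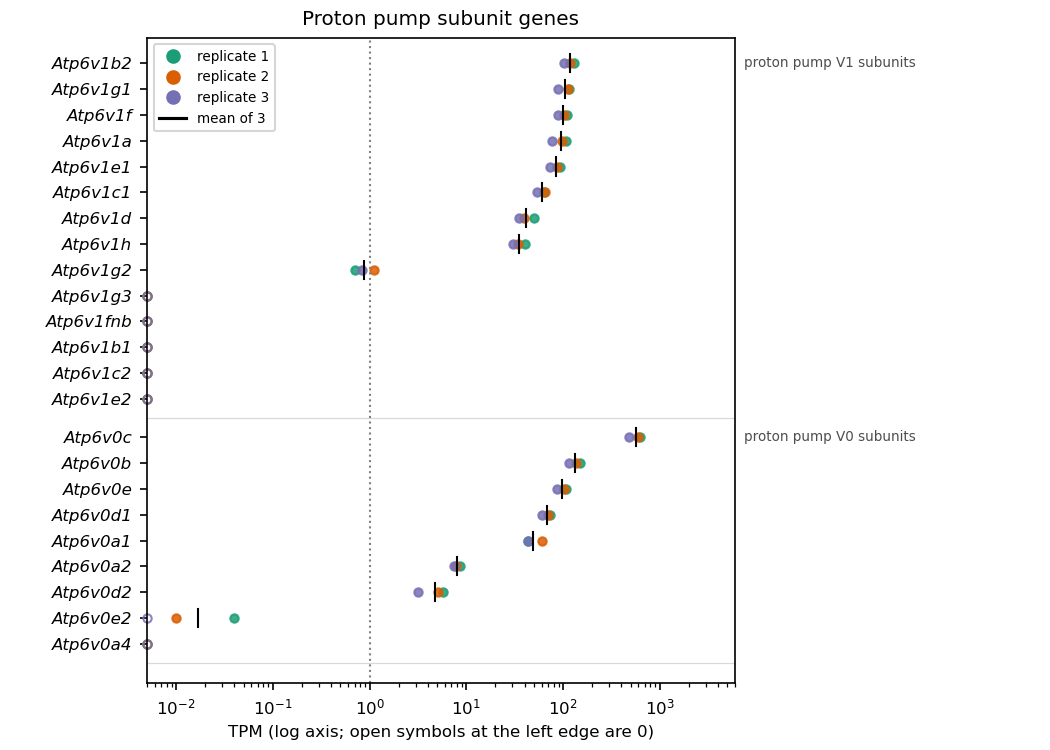
TPM (log axis) of the 23 Atp6v genes in each library (coloured points) with their mean (black bar), V1 genes above and V0 genes below; open symbols at the left edge are 0 and the dotted line marks 1 TPM. Atp6v0c stands highest at 486 to 622 TPM, and the paralogs Atp6v1g2, Atp6v1g3, Atp6v1b1, Atp6v1c2, Atp6v1e2, Atp6v0e2 and Atp6v0a4 lie near or at 0, as does Atp6v1fnb, which is no subunit.

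The members linked to osteoclasts, Ctsk, Acp5 and Atp6v0d2, were compared with markers of that cell, which can arise from the same precursors. Of 8 osteoclast markers only Nfatc1, also a general immune transcription factor, was detected, at 7.83, 7.76 and 8.01 TPM. The summed level of the list was 8.67, 8.81 and 8.69 TPM, and the more restricted markers Calcr, Ocstamp, Oscar and Dcstamp lay at or below 0.03 TPM in each library. Most of that sum was Nfatc1, and no marker of the list had 0 counts in all 3 libraries. The part of such cells in the levels of Ctsk, Acp5 and Atp6v0d2 was not tested. In bulk RNA, fewer cells of a type and less RNA per cell cannot be told apart.

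The 13 pairs given as log2 ratios, 1 a lower bound, kept their sign in 3 of 3 libraries in TPM of the gene table. With 3 libraries the exact two-sided sign-flip permutation test cannot go below p = 0.25, so this test could not reach 0.05. The SDs of the ratios cover the spread between libraries and not the uncertainty of quantification. Ctsd/Ctsb, at 0.33 ± 0.10, reversed to -0.065 in the second transcript table. The ratios are therefore to be read against their values in that table as well as their SDs. Only Atp6v1a/Atp6v1b2 and Ctsd/Ctsb lay within a log2 ratio of 1.

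The spread between libraries was the comparison that could be tested across all genes. In edgeR, 240 of 12256 genes tested (1.96%) were more variable between libraries than the trend at their abundance, at an adjusted p under 0.05. Of the 47 members tested 0 were called. At an unadjusted p under 0.05 there were 2 members of 47, against 843 of 12256 genes (6.88%): Ctsk (CV 65.9%, adjusted p = 0.0954 in edgeR) and Atp6v0d2 (CV 25.1%, adjusted p = 0.532 in edgeR). No member was called with DESeq2 size factors (1.98% of all genes called), with no filter on low counts (1.252%) or with the second transcript table (1.72%) either. The same count was found with edgeR's quasi-likelihood F test, which called 0 of all genes, and without each replicate, where 0.654 to 0.932% of all genes were called, so these runs add little. The highest Ctsk value came from replicate 1, and without that library Ctsk was no longer among members at an unadjusted p under 0.05; the same held for Atp6v0d2 without replicate 3.

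The median CV of the members was 9.45%, against 11.0% for all genes tested. Within the middle of the members' abundance range the medians were 9.45% for 23 members and 10.01% for 1695 genes. Most even were Tfe3 (CV 2.07%), Glb1 (2.75%), Ctsb (3.00%) and Ctsa (3.01%). Least even of the detected members, after Atp6v0d2, were Mitf (21.5%), Cst3 (19.6%) and Acp5 (19.3%).

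**Figure D4:**
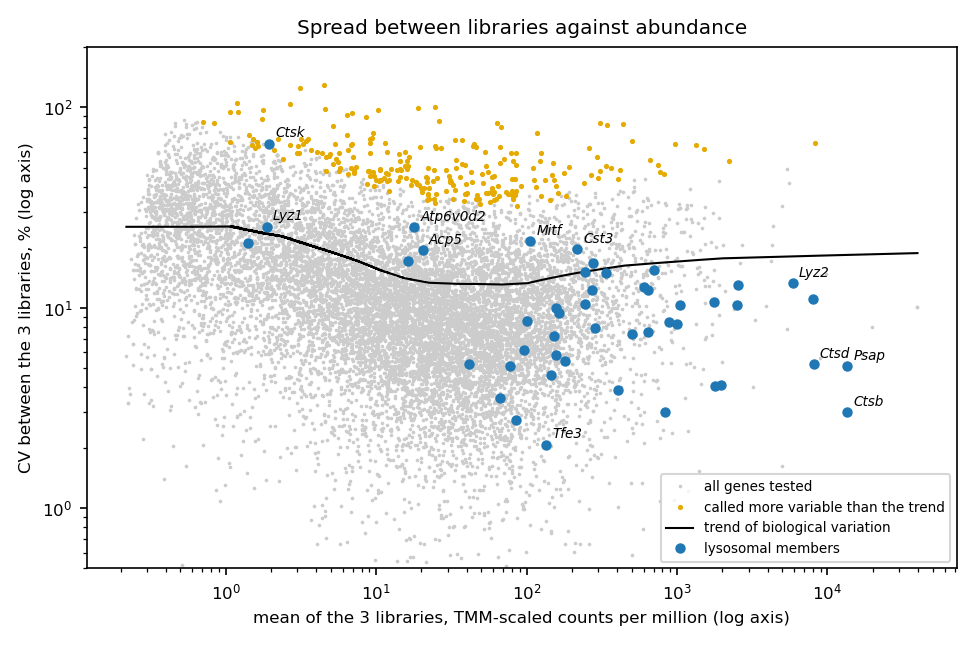
Coefficient of variation between the 3 libraries (%, log axis) against mean TMM-scaled CPM (log axis) for all 12256 genes tested (grey), those called more variable than the trend (yellow), the trend (line) and the 47 lysosomal members tested (blue). None of the blue points is among the called genes, and Ctsk at 65.9% lies nearest to them.

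Small differences between the libraries were shared by many members. In counts per library total (CPM) scaled by TMM, the scale that assumes most genes equal, 31 of 47 members were highest in replicate 1, 13 in replicate 2 and 3 in replicate 3, against 35.1, 32.1 and 32.8% of all genes. The median deviation from the gene's mean was 0.06, 0.01 and -0.08 on the log2 scale. Of the 16 pump genes tested 12 were highest in replicate 1, 4 in replicate 2 and 0 in replicate 3, but 4, 10 and 2 with total counts. The library that was highest depended on the scaling, for all genes too. In CPM of the total counts, 14 members were highest in replicate 1, 24 in replicate 2 and 9 in replicate 3. The shares of all genes were 23.1, 41.4 and 35.5%. With TPM rescaled over nuclear protein-coding genes the numbers were 14, 25 and 8, against 21.5, 42.1 and 36.4% of all genes. Under each of the 5 scalings fewer members were highest in replicate 3 (4.26 to 19.1%) than among all genes (17.3 to 36.4%), and no test of this was made. The macrophage marker sum was 3014, 2948 and 3044 TPM in replicates 1, 2 and 3. Rescaled over nuclear protein-coding genes it was 9093, 9976 and 10888 TPM. Replicate 3 had the highest sum on both scales, and the part of this sum in the pattern was not tested.

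The RNA of 29 of the 44 detected members came mostly from a leading transcript with 80% or more of the gene's TPM, and 5 members have a single annotated transcript. In the other 15 members the leading transcript took less, and 42 of 44 had the same leading transcript in both transcript tables. Lgmn was split between Lgmn-201 (55.0, 50.5 and 53.8%) and Lgmn-202 (44.9, 49.4 and 46.1%), which have the same coding sequence. The same held for Acp5-201 (56.9, 57.8 and 44.8%) and Acp5-202 (27.9, 20.7 and 38.2%), and for Atp6v1a-202 (79.55, 77.4 and 77.7%) and Atp6v1a-201 (19.4, 19.3 and 21.7%). Between the transcripts of each of these pairs the split concerns untranslated sequence only. The second transcript table also gave 13.7, 23.3 and 17.5% of Atp6v1a to Atp6v1a-203, whose annotated coding part is incomplete, against 1.26 ± 1.66% in the first.

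Elsewhere the transcripts differed in their coding part. Psap-202 (60.3, 51.6 and 52.8%) and Psap-203 (37.3, 44.9 and 44.5%) have coding lengths of 1665 and 1656 bases and differ near their starts. Ctsd-202 (76.8, 74.7 and 67.9%) and Ctsd-201 (22.9, 25.2 and 31.9%) differ by 18 coding bases, but the second transcript table gave 99.2 ± 0.201% to Ctsd-202, so the share of the shorter form is uncertain. Ctsc-201 (70.8, 63.8 and 71.5%) codes for the whole protease, and Ctsc-203 (27.7, 34.4 and 26.7%) has a coding length of 414 against 1389 bases. Atp6v0a1-202 (65.2, 65.8 and 64.4%) lacks 18 coding bases that Atp6v0a1-201 (6.56, 7.14 and 6.15%) has. Ctsa was led by Ctsa-202 (61.9, 65.9 and 63.4%), beside Ctsa-210 (26.4, 22.5 and 24.8%), whose annotated coding part is incomplete. Gusb-201 took 79.3, 74.9 and 75.05%.

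The transcription factors were divided among more forms. Mitf was led by Mitf-202 (79.3, 76.0 and 75.4%), with Mitf-208 at 16.2, 20.1 and 21.1%. These transcripts have different starts of the coding sequence. In the second transcript table Mitf-202 led as well (66.3 ± 5.58%), but Mitf-207 came next with 21.9 ± 1.40%, against 3.00 ± 1.00% in the first, and Mitf-208 took 8.30 ± 4.67%. Tfeb was divided between Tfeb-212 (55.5, 51.8 and 45.1%), whose annotated coding part lacks a start, and Tfeb-202 (44.5, 47.5 and 50.9%), and the second transcript table put Tfeb-202 first with 62.0 ± 5.49%. Tfe3-204 took 44.1, 25.99 and 30.2% and Tfe3-205 took 16.4, 32.1 and 24.9%, so the leading form was not the same in every library. In the second transcript table Tfe3-204 led in all 3 libraries (43.9, 28.95 and 31.5%), followed by Tfe3-201 (26.3 ± 1.30%), and Tfe3-205 took 11.8 ± 5.73%.

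**Figure D5:**
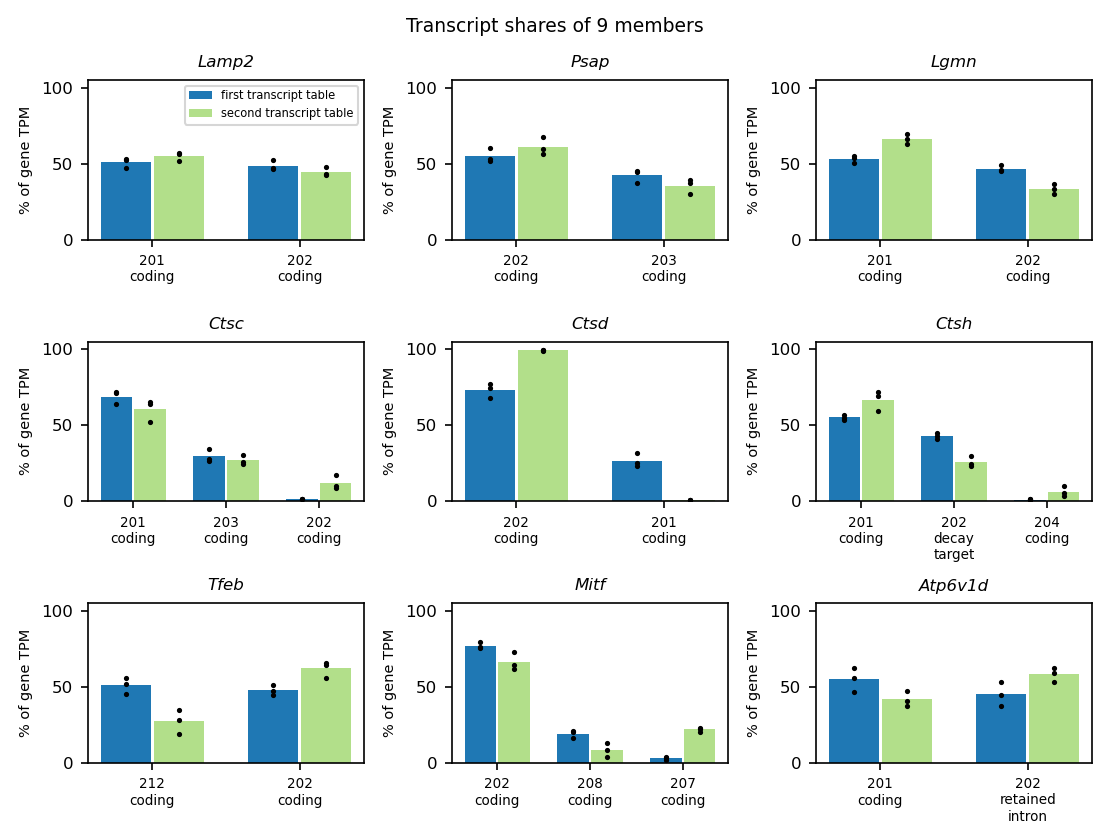
Share of the gene's TPM (%) of the main transcripts of 9 members in the first (blue) and second (green) transcript tables; bars are means and black points the 3 libraries, with the transcript number and its annotated type below. Lamp2 is split near 50% in both tables, whereas Ctsd, Tfeb and Atp6v1d differ between them.

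Further genes of the same pathways, from lists outside the set, were mostly present at lower levels. Of 34 other soluble hydrolases and activators 32 were detected (median 23.3 TPM), with the cholesterol carrier Npc2 (278 TPM) and the acid phosphatase Acp2 (158) among the highest; Ctse (0.25, 0.14 and 0.1) and Ctsw (0, 0.03 and 0.02) were not detected. Of 19 other membrane proteins 18 were detected (median 22.9), led by Laptm5 (304), the tetraspanin Cd63 (236) and the metal transporter Slc11a1 (144), while Lamp5 had 0 counts. Of 15 other pump subunits and partners 13 were detected (median 12.8), led by Tcirg1, the accessory subunit Atp6ap1 (102) and Rnasek (101), while Atp6ap1l and Tldc2 had 0 counts. In these lists 0 of 33, 0 of 18 and 0 of 13 genes tested were called more variable than the trend. The test was that of edgeR at an adjusted p under 0.05, which called 1.96% of all genes tested.

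Genes for the sorting of hydrolases to the lysosome were present too. Of 10 sorting genes 9 were detected (median 12.0 TPM), led by the mannose 6-phosphate receptor M6pr (111), the sulfatase activator Sumf1 (30.25) and the adaptor Gga1 (22.9), and Sort1 stood at 0.61, 1.27 and 1.06. Of 16 genes of mTORC1 nutrient sensing, MiT/TFE control included, 15 were detected (median 19.5), led by the Ragulator subunit Lamtor1 (76.95), the folliculin partner Fnip2 (64.2) and Lamtor5 (57.7). Rragb was at 0.14, 0.16 and 0.06. Tfec was the 1 gene of these lists called more variable than the trend (adjusted p = 0.0345 in edgeR), at 62.5, 73.4 and 35.9 TMM-scaled CPM. It was 1 of 15 genes tested in its list, beside 0 of 10 sorting genes, against 1.96% of all genes tested. With edgeR's quasi-likelihood F test 0 of all genes were called, Tfec included. Of 7 other cystatins and stefins only Cst7, an inhibitor of cathepsins in immune cells, was detected, at 86.6, 69.3 and 91.3 TPM, and the myeloid stefins Stfa1, Stfa2, Stfa3, Stfa2l1 and BC100530 and the gene Cst6 lay at or below 0.16 TPM.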

How the data were processed

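Expected counts, TPM and transcript shares in percent were used as the authors deposited them, per the file headers, in a gene table and a first transcript table per library. Estimated counts and TPM were also deposited by the authors in a second transcript table. The deposited README notes name mm10 and GENCODE M21. Programs and the use of strand are not stated in these sources. Columns match the output of RSEM (gene and first transcript table) and kallisto (second). The posterior SD of member counts, deposited in the gene table, was at most 0.409% of the count. Features that are not genes (phiX and others) entered neither library sizes nor tests, and no value column was left unused because of an unknown sample (0 columns). The 3 libraries were not copies of each other by a chi-square test of their counts.

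Members were matched by symbol, and 2 Atp6v0c pseudogenes were left out. Rounded expected counts were scaled by TMM in edgeR 4.0.16 (R 4.3.3) and filtered with filterByExpr. Each gene's residual deviance at the trended dispersion was tested against chi-square, with Benjamini-Hochberg adjustment over all 12256 genes, and the method was tested on simulated data. Alternatives used DESeq2 1.42.0 size factors, edgeR's quasi-likelihood F test, no filter, the second transcript table and each replicate left out. Ratios are log2 ratios of TPM without a pseudocount. The floor for 0 counts was 3 counts per library and covers counting error only. Promoters came from RefSeq and coding sequences from the GENCODE M21 annotation and transcripts.

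The members, lists, pairs and tests were chosen with earlier results of these data known. Named with values in all libraries were the 2 highest and the lowest member of each role, genes of the pairs and members not detected. So were the main transcripts of members whose leading transcript took under 80%. In other lists the 3 highest were named, mostly by their mean only, with those called variable and those not detected. Further names were chosen after their values were seen. A gene that this rule would name in the other lists is not reported here.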

Additional observations from a re-analysis of the deposited data

How the results depend on the processing

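The 19 results were recomputed under 112 alternatives, of which 83 moved the result by no more than 1 SD between libraries or, for counts of genes, by no more than 1.5 times. For the log2 ratios, leaving out 1 of 3 libraries cannot move the mean by more than 1 SD. Those runs were bound to be among the 83 and say nothing about stability. The number of members called more variable than the trend stayed at 0 under all of its alternatives. The number of all genes called was 0 with edgeR's quasi-likelihood F test and 82 to 119 when a replicate was left out, where fewer samples were tested, against 240. The median level of the members was 49.9 TPM in the second transcript table and 295 TPM when rescaled over nuclear protein-coding genes, against 89.4. Under scalings chosen after seeing the data, members highest in replicate 1 numbered 14 with total counts and 14 with TPM over nuclear protein-coding genes, against 31. Those highest in replicate 3 numbered 9 and 8, against 3. Under these 2 scalings 23.1 and 21.5% of all genes were highest in replicate 1, and 35.5 and 36.4% in replicate 3.

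In the second transcript table the log2 ratio was 11.99 for Lyz2/Lyz1, 4.40 for Ctsb/Ctsl, 2.53 for Ctsb/Cstb and -0.047 for Atp6v1a/Atp6v1b2, and it reversed to -0.065 for Ctsd/Ctsb. As shares of nuclear protein-coding TPM, the 44 detected members stood in that table at 0.877 (Mcoln1) to 1.26 (Ctsb) of their gene-table level. With counts not corrected for gene length, Ctsd/Ctsb reversed to -0.75 and Atp6v1a/Atp6v1b2 to 0.26. The cause of these reversals was not tested beyond the missing length correction that defines the count ratios. The other count ratios were 5.34 for Ctsb/Ctsl, 3.55 for Ctss/Cst3, 5.57 for Ctsb/Cstb, 1.61 for Lamp1/Lamp2, 3.08 for Tfe3/Tfeb, 2.70 for Mitf/Tfeb, 13.09 for Atp6v1b2/Atp6v1b1, 3.18 for Atp6v0d1/Atp6v0d2 and 1.21 for Tcirg1/Atp6v0a1. A pseudocount of 1 TPM gave 10.61 for Lyz2/Lyz1, 9.50 for Ctss/Ctsk and 6.88 for Atp6v1b2/Atp6v1b1, lower by construction. The second transcript table gave no value for Atp6v1b2/Atp6v1b1, since Atp6v1b1 is listed at 0 there. No paired analysis was possible because the 3 libraries form 1 group. Ratios to Ctsk and Lyz1 rest on 54.0 to 173.1 counts per library, and levels in cells without Lipid A were not analysed here.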

Other observations

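Several members gave part of their RNA to transcripts annotated as not coding for the full protein. In Ctsh, Ctsh-202, annotated as a target of nonsense-mediated decay, took 40.7, 44.9 and 42.7% of the gene's TPM beside the coding Ctsh-201 (57.0, 53.6 and 54.6%), and 25.7 ± 3.53% in the second transcript table. In Atp6v1d, the retained-intron transcript Atp6v1d-202 took 53.2, 44.35 and 37.6%, beside Atp6v1d-201 at 46.5, 55.65 and 62.1%. The retained-intron form was the larger in replicate 1 only, and the second transcript table put it first with 58.1 ± 4.95%. Retained-intron transcripts of Ctsb together took 15.9% of its TPM, and 38.6% in the second transcript table. In Gusb, the decay target Gusb-206 took 9.74, 17.1 and 17.3%, but 1.14 ± 0.453% in the second transcript table. In Atp6v0a1, processed transcripts without a coding part took 16.6% in both tables. The shares in the tables differed by over 1.5 times for Ctsh, Ctsb and Gusb and by less for Atp6v1d and Atp6v0a1, and no test of these differences was made.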
